A study of Carica papaya with 12 samples.

Results

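Of 27689 gene models counted in papaya flower buds, 24 kept the cultivars 'SunUp' and 'AU9' apart in every library. They were chosen by their measured counts: in each library a gene's count was expressed per 1000000 counts of the library total (CPM), and 0.5 CPM was added. A gene was taken as higher in 'SunUp' when its lowest value over the 4 'SunUp' libraries was at least 3 and at least 3 times its highest value over the 8 'AU9' libraries, and as higher in 'AU9' when the reverse held. The 83 genes listed in the study's own tables were left out, and none of them met the rule. The rule found 10 genes higher in 'SunUp' and 14 higher in 'AU9'. These values chose the genes, so the difference between the cultivars is described below and not tested.

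Papaya has male, female and hermaphrodite plants, set by a chromosome region that is present in an X form, a Y form in males and a Yh form in hermaphrodites. Male and hermaphrodite flowers make anthers, and female and hermaphrodite flowers make a functional pistil. 'SunUp' is a commercial variety from Hawaii that carries a transgene for virus resistance and gave the first draft genome of the species, while 'AU9' is dioecious breeding material from Australia. The gene identifiers are those of that draft genome. Those of the 24 genes are not paired with a gene name or a role in the sources used here, so the genes are given by identifier, in full at first use and later without the leading "evm.model." or "evm.TU.". For the same reason no other genes of a pathway are listed beside them.

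RNA was sequenced from untreated buds of 6 groups with 2 libraries each, 12 in all. Female 'AU9', male 'AU9' and hermaphrodite 'SunUp' plants each gave buds of 1–6 mm, labelled pre-meiosis, and of 7–12 mm, labelled post-meiosis. All plants grew at 1 research station, 'SunUp' was sampled only as hermaphrodites and 'AU9' only as males and females, so cultivar and the hermaphrodite sex cannot be told apart. The replicates are described as biological, and how many plants made up a library is not given in the sources used here. Replicate 1 of each group was sequenced with single-end reads and replicate 2 with paired-end reads, on different instruments.

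The libraries held between 4520811 and 16564137 counts, so 1 read was worth between 0.0604 and 0.221 CPM. In every library 4 flower organ genes summed to between 400 and 1457 CPM. The 6 anther and tapetum genes summed to 0.197–2.57 CPM in females, 800–1533 CPM in males and 817–1833 CPM in hermaphrodites. By these sums the labels fitted the tissue, but single genes did not all follow them. The gene the study names MS1 was at 0.135 and 0 CPM in 1–6 mm hermaphrodites. It was at 0 to 0.135 CPM in females and at 62.0 and 6.52 CPM in 1–6 mm males. DYT was at 0.612 and 0.619 CPM in 7–12 mm hermaphrodites, against 2.05 and 3.25 CPM in males of that size. Whether a size class held the same stage in both cultivars was not tested. By the same rule, 69 genes were higher and 124 lower in the 4 female libraries than in the other 8, and 7 were higher and 4 lower in the 4 male libraries. Over the 19339 genes tested below, the median log2 difference of 'SunUp' from 'AU9' was −0.03. In bulk buds, fewer cells of a type and less RNA per cell cannot be told apart. Replicate 2 of hermaphrodite and of male 1–6 mm buds stood apart, with a larger share of unaligned reads than the other libraries. In them 1 gene model (evm.model.supercontig_2112.2) took 2.71% and 0.686% of the counts, against at most 0.0399% elsewhere. Without both libraries the rule held for 11 genes in 'SunUp' and 20 in 'AU9'. By the study's own alignment summary, the other 'SunUp' libraries each had a smaller share of unaligned reads than every 'AU9' library. Alignment thus differed between the cultivars as well. Whether this affected the counts of the chosen genes was not tested.

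The 10 genes higher in 'SunUp' spanned a wide range of levels, with medians over its 4 libraries from 6.14 to 727 CPM. Together they made up 1635 to 2099 CPM in the 'SunUp' libraries and 89.6 to 292 CPM in the 'AU9' libraries. The ratio of mean values (CPM plus 0.5) between the cultivars ran from 3.97 to 21.9, with a median of 13.9. The 14 genes higher in 'AU9' summed to 784–1045 CPM in 'AU9' and 53.8–65.3 CPM in 'SunUp', and their mean ratios ran from 4.18 to 37.6, with a median of 13.6. In 5 of the first 10 genes, but in 2 of the other 14, the lower cultivar still reached over 10 CPM in at least 1 library.

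**Figure D1:**
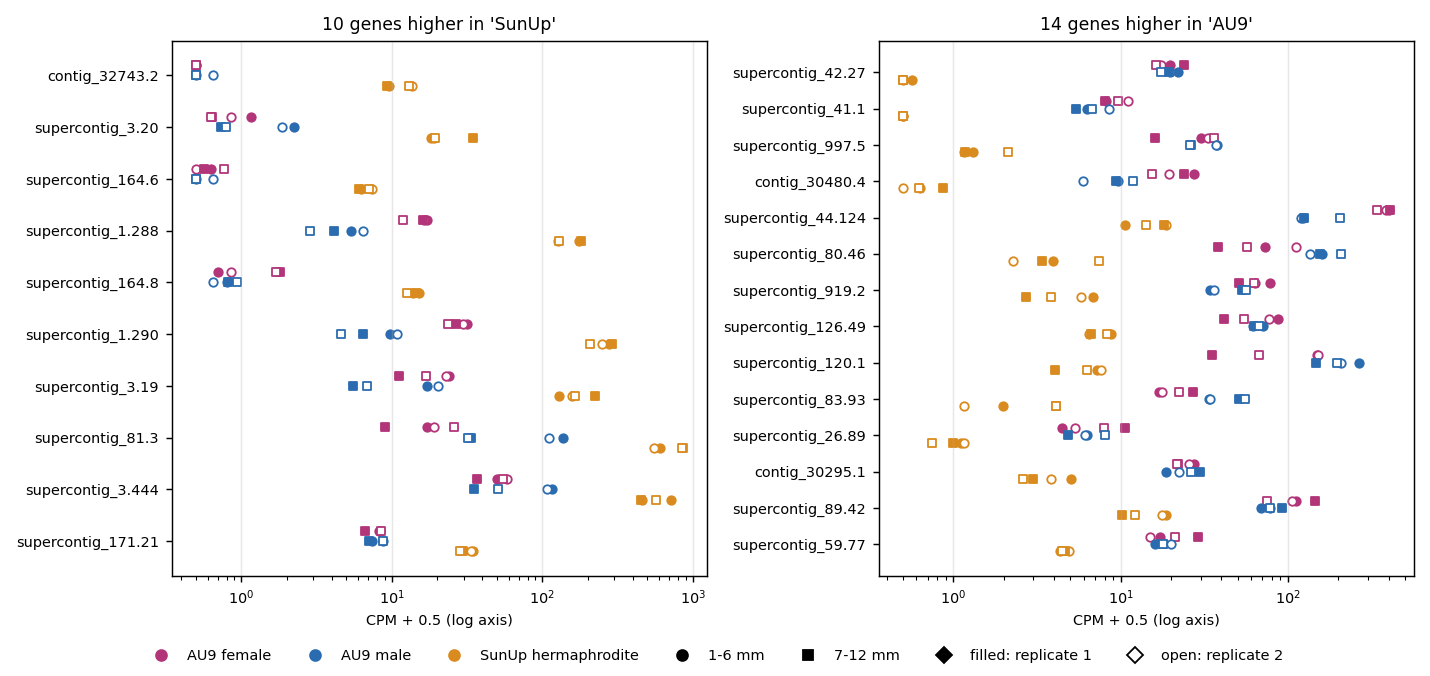
Value of each of the 24 genes in each of the 12 libraries, as CPM plus 0.5 on a log axis, with the 10 genes higher in 'SunUp' on the left and the 14 higher in 'AU9' on the right, ordered by the gap between the cultivars. Colour gives sex and cultivar, circles 1–6 mm and squares 7–12 mm buds, and filled and open marks replicates 1 and 2. The orange 'SunUp' points lie apart from all 'AU9' points in every row, as the rule requires, and 3 rows hold at most 1 count over all libraries of 1 cultivar.

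Of the 10 genes higher in 'SunUp', 6 lay in 3 neighbouring pairs on the assembly. The pair evm.model.supercontig_1.290 (scf7180000007636:364486-367950, plus strand, 7 exons) and evm.model.supercontig_1.288 (scf7180000007636:384622-386994, plus strand, 5 exons) were 16672 bases apart. The gene supercontig_1.290 was at 277 and 250 CPM in 1–6 mm and 290 and 207 CPM in 7–12 mm 'SunUp' buds (replicates 1 and 2), and at 4.14, 16.8 and 31.2 CPM in 'AU9' (lowest, median and highest of 8). Its partner supercontig_1.288 was at 176 and 126 CPM in 1–6 mm and 180 and 128 CPM in 7–12 mm 'SunUp' buds, and at 2.36, 8.68 and 16.6 CPM in 'AU9'. Both were thus detected in every 'AU9' library rather than absent, with male libraries below female ones in each. On the CPM plus 0.5 scale the means were 14.3 and 15.2 times higher in 'SunUp'. The count of supercontig_1.290 was 1.58 to 1.99 times that of supercontig_1.288 over the 4 'SunUp' libraries and 1.63 to 2.04 times over the 8 'AU9' libraries, ranges that overlap although the levels do not. Between them lay evm.model.supercontig_1.289 on the other strand, with 2 counts in 'SunUp' and 2 in 'AU9' in all.

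The single-exon genes evm.model.supercontig_3.20 (scf7180000008777:435402-436083) and evm.model.supercontig_3.19 (scf7180000008777:436682-437329) lay 599 bases apart on the minus strand. The gene supercontig_3.20 was at 17.7 and 18.6 CPM in 1–6 mm and 34.1 and 18.8 CPM in 7–12 mm 'SunUp' buds, and at 0.135, 0.323 and 1.75 CPM in 'AU9'. Its neighbour supercontig_3.19 was at 129 and 158 CPM in 1–6 mm and 224 and 164 CPM in 7–12 mm 'SunUp' buds, and at 5.04, 16.4 and 23.4 CPM in 'AU9'. The highest 'SunUp' library of both genes was replicate 1 of the 7–12 mm buds, and the lowest 'AU9' libraries were of 7–12 mm. Unlike the first pair, these did not keep 1 ratio of counts: supercontig_3.19 had 6.58 to 8.71 times the count of supercontig_3.20 in 'SunUp' and 9.45 to 121 times in 'AU9', where 5 libraries had 3 or fewer counts of the latter. The means on the CPM plus 0.5 scale were 20.4 times higher in 'SunUp' for supercontig_3.20 and 10.9 times for supercontig_3.19.

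The remaining pair, evm.model.supercontig_164.8 (scf7180000008696:156716-161430, 8 exons) and evm.model.supercontig_164.6 (scf7180000008696:164056-164481, 1 exon), lay 2626 bases apart on the minus strand. The gene supercontig_164.8 was at 14.7, 13.3, 14.0 and 12.1 CPM in the 'SunUp' libraries (1–6 mm replicates 1 and 2, then 7–12 mm replicates 1 and 2) and at 0.152, 0.333 and 1.31 CPM in 'AU9'. The gene supercontig_164.6 was at 5.72, 6.86, 5.57 and 6.57 CPM and, in 'AU9', at 0, 0.0344 and 0.269 CPM, with 6 counts over the 8 libraries. Both were low but even in 'SunUp', at 1.85 to 2.56 counts of the first for each of the second. Their means on the CPM plus 0.5 scale were 13.6 and 11.6 times higher in 'SunUp'. The model between them on the same strand, evm.model.supercontig_164.7, had 76 counts in 'SunUp' and 4 in 'AU9', and was too low for the rule.

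The 4 genes higher in 'SunUp' outside the pairs held both the most abundant gene and the smallest count. The gene evm.model.supercontig_81.3 (scf7180000007921:48752-51380, minus strand, 7 exons) was at 602, 555, 859 and 853 CPM in the 'SunUp' libraries, in the order above, and at 8.53, 28.5 and 137 CPM in 'AU9'. The gene evm.model.supercontig_3.444 (scf7180000009196:3993181-3996801, plus strand, 9 exons) was at 716, 461, 454 and 566 CPM in 'SunUp' and at 34.8, 52.7 and 115 CPM in 'AU9'. In both genes the 2 highest 'AU9' libraries were the 1–6 mm males, at 137 and 111 CPM for the first and 115 and 107 CPM for the second. The gene evm.model.supercontig_171.21 (scf7180000008654:561365-562887, plus strand, 2 exons) varied least, at 34.1, 33.2, 29.2 and 27.9 CPM in 'SunUp' and 6.19, 7.80 and 8.27 CPM in 'AU9', a mean ratio of 3.97.

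The gene evm.TU.contig_32743.2, a model placed at 2 positions of the assembly, had 9.09, 13.1, 8.81 and 12.5 CPM in the 'SunUp' libraries, in the order above. In 'AU9' it had 1 count, in a male library of 1–6 mm buds, and 0 in the other 7. With 439 counts of 43796744 in 'SunUp' and 1 of 88355864 in 'AU9', the pooled ratio was 886. The exact 95% interval of 158 to 35060 covers counting error only and leaves out the spread between libraries. These counts chose the gene, so the interval does not test the difference. Reads that align to both positions were counted at each, so the level of this gene is uncertain. With evm.model.supercontig_164.6 it is 1 of 2 genes of the 10 that were at 0 in at least 1 'AU9' library.

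Among the 14 genes higher in 'AU9', 2 short single-exon models were all but absent from 'SunUp'. The gene evm.model.supercontig_42.27 (scf7180000008819:999706-999896, plus strand) was at 15.7, 19.0 and 23.4 CPM in 'AU9' and had 1 count in 'SunUp', in replicate 1 of 1–6 mm. Its pooled ratio was 857, with an exact 95% interval of 154 to 33871 from 1729 counts and 1 count. This interval too covers counting error only and does not test the difference. The gene evm.model.supercontig_41.1 (scf7180000009344:870775-870913, minus strand) was at 4.88, 7.56 and 10.5 CPM in 'AU9' and had no count in any 'SunUp' library. From 636 counts in 'AU9' and a floor of 3 counts over the 4 'SunUp' libraries, its pooled ratio was at least 105, which allows for counting error only. Their models are 191 and 139 bases long.

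Of the longer genes higher in 'AU9', the lowest in 'SunUp' was evm.TU.contig_30480.4 (scf7180000008663:247069-248791, minus strand, 3 exons). It was at 0.135, 0, 0.367 and 0.124 CPM in the 'SunUp' libraries, in the order above, and at 5.46, 13.1 and 26.9 CPM in 'AU9'. The gene evm.model.supercontig_997.5 (scf7180000008774:137958-139985, minus strand, 4 exons) was at 0.808, 0.664, 0.673 and 1.61 CPM in 'SunUp' and 15.5, 31.1 and 37.3 CPM in 'AU9'. These are mean ratios of 23.4 and 21.1 on the CPM plus 0.5 scale, and the 'AU9' libraries of the first split by sex, with 14.8 to 26.9 CPM in females and 5.46 to 11.4 CPM in males.

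The most abundant gene higher in 'AU9' was evm.model.supercontig_44.124 (scf7180000008663:791456-792139, minus strand, 3 exons), at 119, 271 and 407 CPM in 'AU9'. It was at 10.1, 18.1, 17.6 and 13.6 CPM in 'SunUp', a mean ratio of 17.1. The gene evm.model.supercontig_80.46 (scf7180000008480:175806-176877, plus strand, 2 exons) was at 37.5, 123 and 207 CPM in 'AU9' and 3.43, 1.77, 2.88 and 6.94 CPM in 'SunUp'. Both had a more than 3-fold range within 'AU9' and stayed detectable in 'SunUp'. The gene evm.model.supercontig_120.1 (scf7180000007734:259418-260732, minus strand, 2 exons) was at 34.6, 149 and 265 CPM in 'AU9' and 6.66, 7.08, 3.55 and 5.82 CPM in 'SunUp'. Its 'AU9' libraries ran from replicate 1 of 7–12 mm females to replicate 1 of 1–6 mm males.

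A further group was expressed at middle levels. The gene evm.model.supercontig_919.2 (scf7180000009208:90896-92785, minus strand, 3 exons) was at 33.6, 54.1 and 78.0 CPM in 'AU9' and at 6.33 and 5.31 CPM in 1–6 mm and 2.20 and 3.34 CPM in 7–12 mm 'SunUp' buds. The gene evm.model.supercontig_83.93 (scf7180000008901:167527-170972, minus strand, 6 exons) was at 16.5, 29.9 and 54.5 CPM in 'AU9' and at 1.48 and 0.664 CPM in 1–6 mm and 3.61 and 3.59 CPM in 7–12 mm 'SunUp' buds. In 'SunUp' the first was thus higher in the smaller buds and the second in the larger ones, without overlap. The gene evm.model.supercontig_126.49 (scf7180000008005:177188-179099, minus strand, 3 exons) was at 41.2, 64.1 and 86.4 CPM in 'AU9' and 8.21, 5.97, 6.12 and 7.80 CPM in 'SunUp', with mean ratios of 11.3, 11.3 and 8.67 for the 3 genes in turn.

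The last 4 genes had mean ratios of 4.18 to 6.69. The gene evm.model.supercontig_89.42 was at 68.2, 84.9 and 144 CPM in 'AU9' and between 9.61 and 18.2 CPM in 'SunUp', and evm.TU.contig_30295.1 at 18.2, 23.5 and 29.4 CPM against 2.11 to 4.58 CPM. The gene evm.model.supercontig_26.89 was the least abundant of these, at 3.95, 5.70 and 10.1 CPM in 'AU9' and 0.248 to 0.664 CPM in 'SunUp', and evm.model.supercontig_59.77 was at 14.4, 17.4 and 28.5 CPM against 3.84 to 4.42 CPM. In each of the 4 the 'AU9' maximum was in a 7–12 mm library, of females in all but evm.TU.contig_30295.1.

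The limit of 3 cut through a continuous run of genes. On the 'SunUp' side supercontig_171.21 passed at a ratio of 3.23 between the lowest 'SunUp' and the highest 'AU9' value, supercontig_3.444 at 3.94 and supercontig_81.3 at 4.04, while evm.model.supercontig_3.445 at 2.93, evm.model.supercontig_519.1 at 2.92 and evm.model.supercontig_19.203 at 2.75 did not. On the 'AU9' side supercontig_59.77 passed at 3.02, supercontig_89.42 at 3.68 and contig_30295.1 at 3.69, while evm.model.supercontig_36.91 at 2.94, evm.TU.contig_45436.1 at 2.90 and evm.model.supercontig_9.336 at 2.89 did not. At a limit of 2 the counts were 28 and 54 genes, and at a limit of 10 they were 1 and 2.

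The places of the genes on the assembly were not used by the rule. Another gene of the same direction lay within 50 kb of 6 of the 10 genes higher in 'SunUp' and of 0 of the 14 higher in 'AU9'. The genes contig_30480.4 and supercontig_44.124 shared a sequence of the assembly but lay 542665 bases apart. Of the 27 tested models within 3 places of a gene higher in 'SunUp', and not themselves among the 24, 4 were more than 2-fold higher in 'SunUp' by their mean values (14.8%, against 2.70% of all 19339 tested genes). Of the 62 such models around the genes higher in 'AU9', 6 were more than 2-fold higher in 'AU9' (9.68%, against 4.95%). Of these 6, 4 were near their 'SunUp' level in males and high in females only, as described below. The 4 models on the 'SunUp' side lay near supercontig_3.444 or near the pair supercontig_164.8 and supercontig_164.6. Among them evm.model.supercontig_164.4 overlapped between the cultivars, at 1.95 to 8.93 CPM in 'SunUp' and 0.526 to 3.69 CPM in 'AU9'. No exon of the 24 genes overlapped another model.

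The neighbours named here were picked after their values were seen. Beside supercontig_3.444, and on the same strand, lay supercontig_3.445 and evm.model.supercontig_3.446. The first was at 1019, 682, 754 and 846 CPM in 'SunUp' and at 68.0 to 232 CPM in 'AU9', and the second had 1228 counts in 'SunUp' and 415 in 'AU9'. The groups did not overlap in either, so the 3 adjacent models all had higher values in 'SunUp', and the next model on that side and the 3 on the other were within 2-fold. On the 'AU9' side, evm.TU.contig_30480.1 and evm.TU.contig_30480.2 beside contig_30480.4 had 110 and 71 counts in 'AU9' against 4 and 3 in 'SunUp'. The other 4, near supercontig_126.49, supercontig_89.42 and supercontig_83.93, followed sex within 'AU9', and in each the male range overlapped that of 'SunUp'. They were evm.model.supercontig_126.51, at 399 to 659 CPM in females, 61.6 to 83.8 CPM in males and 54.0 to 91.2 CPM in 'SunUp', and evm.model.supercontig_126.52, evm.model.supercontig_89.41 and evm.model.supercontig_83.94. The gene evm.model.supercontig_89.41 was at 281 to 417 CPM in females, 51.1 to 80.7 CPM in males and 27.9 to 85.6 CPM in 'SunUp'.

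**Figure D2:**
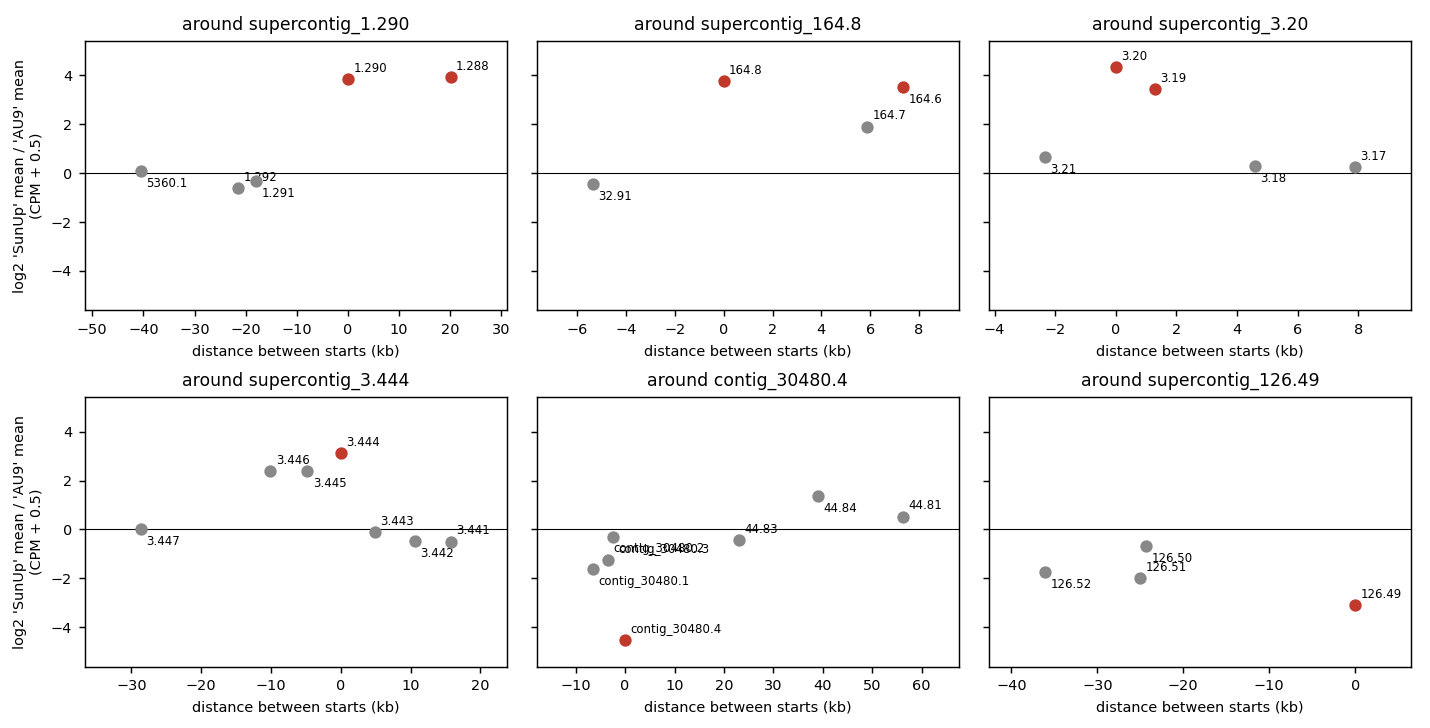
Log2 ratio of the 'SunUp' mean to the 'AU9' mean (CPM plus 0.5) for gene models up to 3 places from 6 of the genes, against the distance between model starts in kb. Red points are genes of the 24 and grey points are other models with at least 10 counts over the 12 libraries, with "supercontig_" left off the labels. The red pairs lie near 4 with most neighbours near 0, and the 2 models beside supercontig_3.444 lie at 2.38 and 2.39.

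In length and exon number the 24 genes spread widely. The genes higher in 'SunUp' had a median coding length of 1090 bases (range 426 to 1675), those higher in 'AU9' 562 bases (139 to 1335), and all tested genes 936 bases. A single exon was found in 4 of the 10 and 3 of the 14, against 20.4% of all tested genes. The median of the mean CPM over the 12 libraries was 36.2 for the first group and 21.1 for the second, against 21.6 for all tested genes.

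Males and females of 'AU9' were then compared, a contrast the rule did not use directly. A gene higher in 'AU9' had to stay high in all 8 'AU9' libraries, while a gene higher in 'SunUp' had only an upper limit there. The rule thus favours genes higher in 'AU9' that change little within 'AU9', so no conclusion is drawn from comparing the directions. In 1–6 mm buds 7 of the 24 genes differed, 2 higher and 5 lower in males (called at an adjusted p under 0.05 and more than 2-fold by edgeR's quasi-likelihood test), against 12.8% of all tested genes (5.86% higher, 6.95% lower). The neighbours supercontig_1.290 and supercontig_1.288 were lower in males by log2 fold changes of −1.87 ± 0.19 (SE, adjusted p = 8.50e-05) and −1.85 ± 0.26 (adjusted p = 0.000537). In CPM, supercontig_1.290 was at 31.2 and 29.3 in females and 9.18 and 10.3 in males. The gene supercontig_81.3 went the other way, from 16.6 and 18.7 CPM in females to 137 and 111 CPM in males, a log2 fold change of 2.60 ± 0.41 (adjusted p = 0.00189). Its male values remained below the lowest 'SunUp' library at 555 CPM. The gene supercontig_3.20 was also called higher in males (1.34 ± 0.38, adjusted p = 0.0253), on 13 counts in females and 38 in males.

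Of the genes higher in 'AU9', 3 were lower in males than in females at this size. They were supercontig_919.2 (log2 fold change −1.25 ± 0.18, adjusted p = 0.000583), supercontig_44.124 (−1.92 ± 0.30, adjusted p = 0.00127) and contig_30480.4 (−1.86 ± 0.40, adjusted p = 0.00662). The gene supercontig_44.124 was at 401 and 385 CPM in females, 123 and 119 CPM in males and at most 18.1 CPM in 'SunUp', an order of female, male and hermaphrodite without overlap. The call on supercontig_3.20 was lost in 6 of 21 alternative analyses (adjusted p 0.0134 to 0.568), among them those without female replicate 2 or male replicate 1. The call on contig_30480.4 was lost in 2 of 21, without female replicate 1 or male replicate 2 (adjusted p 4.05e-05 to 0.0647 over the 21).

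In 7–12 mm buds 8 of the 24 genes differed between males and females, 3 higher and 5 lower in males, against 16.5% of all tested genes (8.79% higher, 7.69% lower). The pair supercontig_1.290 and supercontig_1.288 was again lower in males, by −2.29 ± 0.21 (adjusted p = 3.18e-05) and −2.14 ± 0.28 (adjusted p = 0.000303). At 26.4 and 23.3 CPM in females and 5.90 and 4.14 CPM in males, supercontig_1.290 kept females between males and 'SunUp'. Also lower in males were supercontig_164.8 (−1.76 ± 0.35, adjusted p = 0.00466) and supercontig_3.19 (−1.26 ± 0.27, adjusted p = 0.00617), so the 4 called genes higher in 'SunUp' were all lower in males at this size.

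At 7–12 mm 3 of the genes higher in 'AU9' were higher in males. They were supercontig_83.93 (1.10 ± 0.19, adjusted p = 0.00138), supercontig_120.1 (1.74 ± 0.32, adjusted p = 0.00292) and supercontig_80.46 (1.94 ± 0.37, adjusted p = 0.00440). The gene supercontig_80.46 was at 37.5 and 56.3 CPM in females and 156 and 207 CPM in males. The gene supercontig_44.124 was again lower in males (−1.20 ± 0.29, adjusted p = 0.0114). Without male 7–12 mm replicate 1 the count was 5. That omission ended the calls on supercontig_44.124 (adjusted p 3.58e-05 to 0.0615 over 21 alternatives), supercontig_164.8 (0.00423 to 0.117) and supercontig_3.19 (8.17e-05 to 0.0585). The calls on the first and second were also lost without female replicate 1, and those on supercontig_3.19 and supercontig_83.93 without female replicate 2.

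**Figure D3:**
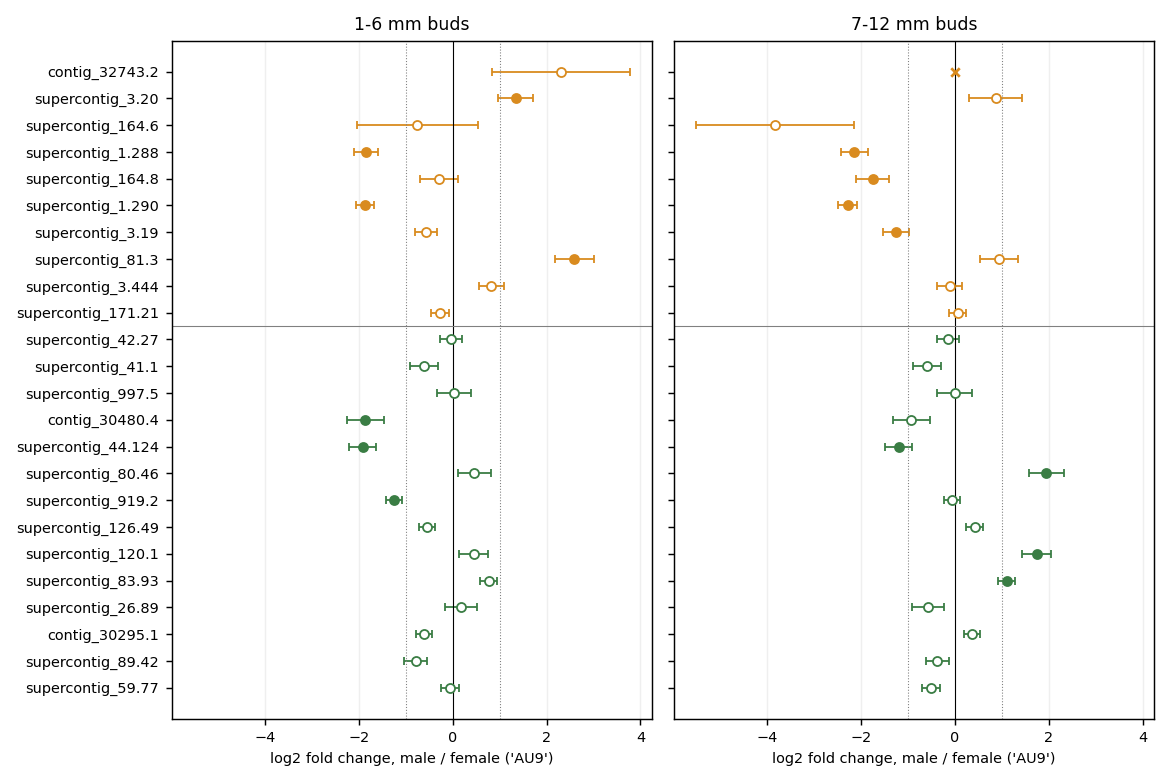
Log2 fold change of male against female 'AU9' buds for the 24 genes in 1–6 mm (left) and 7–12 mm buds (right), from edgeR's fit, with bars of 1 SE. Orange marks genes higher in 'SunUp' and green those higher in 'AU9'. Filled points passed an adjusted p of 0.05 and 2-fold (dotted lines), and a cross has no count in either group. The filled orange points for supercontig_1.290 and supercontig_1.288 lie near −2 at both sizes.

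Over both sizes 6 of the 10 genes higher in 'SunUp' and 6 of the 14 higher in 'AU9' differed between the sexes in at least 1 size, against 21.3% of all tested genes. Between the sizes, in the comparisons that follow, it was 5 and 3, against 8.26% of all. In none of these comparisons were contig_32743.2, supercontig_164.6 and supercontig_171.21 called among the former, or 8 of the latter, among them supercontig_42.27, supercontig_41.1 and supercontig_997.5. For contig_32743.2 and supercontig_164.6 the counts in 'AU9' were too low to show a difference there.

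Within a sex, between 2 and 4 of the 24 genes differed with bud size in the fit of all 12 libraries, each time a larger share than of all tested genes. With 1 library left out the counts went as low as 0 in females, 1 in males and 1 in hermaphrodites, so these larger shares did not always hold. In 'AU9' females 2 of 24 differed between 7–12 and 1–6 mm, against 1.94% of all tested genes (0.745% higher at 7–12 mm, 1.20% lower). The gene supercontig_164.8 rose from 0.197 and 0.351 CPM to 1.31 and 1.21 CPM (log2 fold change 2.13 ± 0.35, adjusted p = 0.00990), which rests on 34 counts in all. The gene supercontig_120.1 fell from 147 and 150 CPM to 34.6 and 66.9 CPM (−1.65 ± 0.32, adjusted p = 0.0214). With the replicate number as a block, supercontig_80.46 was also called lower (−1.07 ± 0.28, adjusted p = 0.0465), 3 genes against 3.27% of all. The count was 0 without replicate 1 of either female group, 1 without female 1–6 mm replicate 2 and 5 without female 7–12 mm replicate 2.

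In 'AU9' males 4 of 24 genes fell from 1–6 to 7–12 mm and none rose (background 5.69%, with 2.77% lower and 2.92% higher), and all 4 were genes higher in 'SunUp'. They were supercontig_3.19 (log2 fold change −1.58 ± 0.27, adjusted p = 0.00542), supercontig_3.20 (−2.45 ± 0.43, adjusted p = 0.00581), supercontig_3.444 (−1.28 ± 0.27, adjusted p = 0.0151) and supercontig_81.3 (−1.83 ± 0.39, adjusted p = 0.0215). The gene supercontig_81.3 went from 137 and 111 CPM to 33.1 and 31.5 CPM, and supercontig_3.19 from 16.5 and 19.9 CPM to 5.04 and 6.35 CPM. The median log2 fold change in males was −1.43 over the 10 genes higher in 'SunUp', 0.25 over the 14 higher in 'AU9' and 0.01 over all tested genes. To meet the rule, a gene higher in 'AU9' needed a high value there at both sizes. A gene higher in 'SunUp' could fall in 'AU9' without limit. The split between the directions was thus partly set by the rule, and no conclusion is drawn from it. Leaving out replicate 1 of the 1–6 mm males left 1 gene, and leaving out replicate 2 left 2. Without male 7–12 mm replicate 1 none of the 4 passed and 1 other gene of the 24 was called.

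In 'SunUp' hermaphrodites 2 of 24 genes differed between the sizes (background 3.05%, with 2.07% higher and 0.972% lower), both of them genes higher in 'AU9'. The gene supercontig_83.93 rose (log2 fold change 1.62 ± 0.24, adjusted p = 0.00582) and supercontig_919.2 fell (−1.10 ± 0.24, adjusted p = 0.0290). None of the 10 genes higher in 'SunUp' was called there, and none had an unadjusted p under 0.05. The rule needs a high 'SunUp' value at both sizes, so it favours genes that change little with size there. Of the 24 genes, DESeq2 called 2 and limma-voom 1 in hermaphrodites, none of them beyond supercontig_83.93 and supercontig_919.2. The call on supercontig_919.2 was lost in 6 of 21 alternatives (adjusted p 0.00882 to 0.245), including those without replicate 1 or 2 of 1–6 mm or replicate 1 of 7–12 mm hermaphrodites, each of which left 1 gene.

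**Figure D4:**
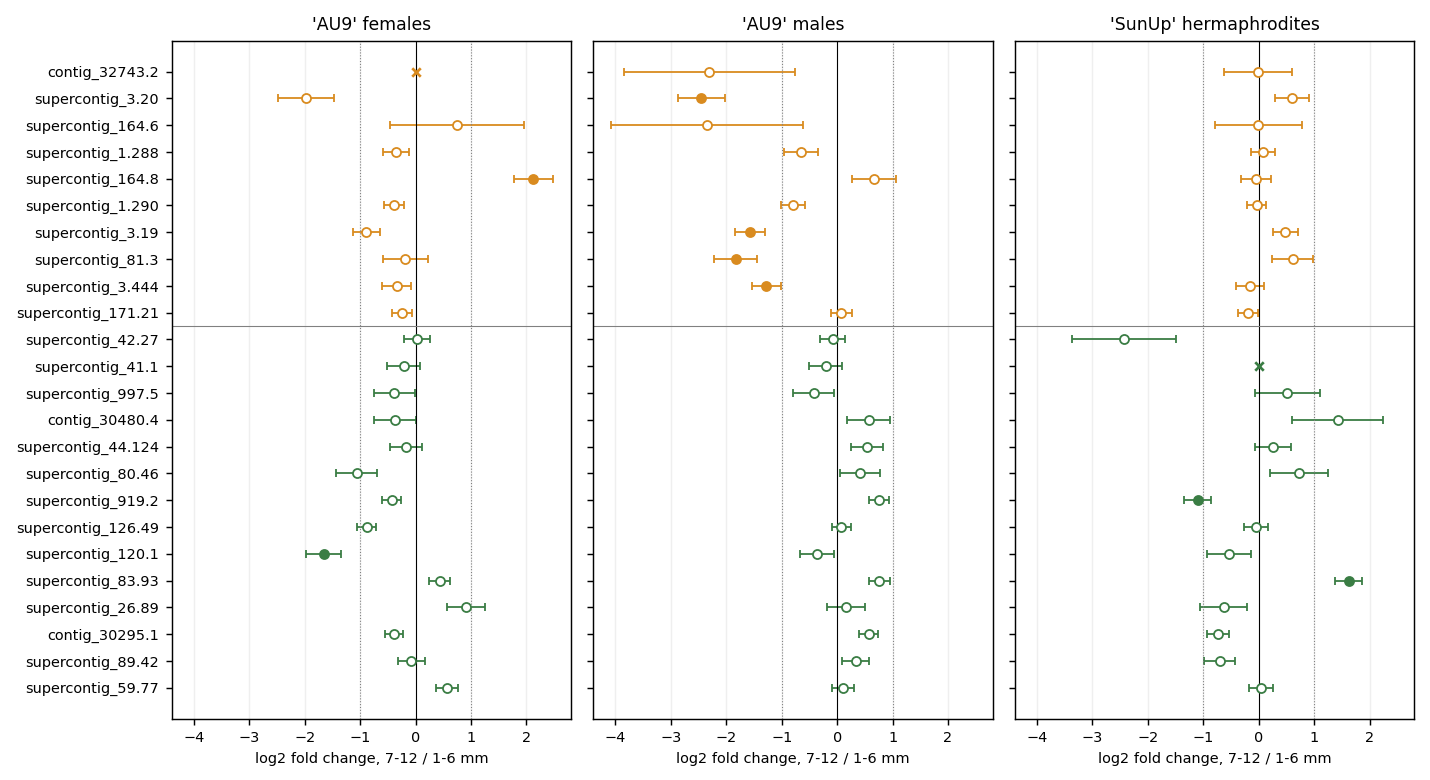
Log2 fold change of 7–12 against 1–6 mm buds for the 24 genes in 'AU9' females, 'AU9' males and 'SunUp' hermaphrodites, from edgeR's fit, with bars of 1 SE. Colours and marks are as in the plot of males against females. In males 4 orange genes are filled and negative, while in hermaphrodites no orange gene is filled.

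Whether size acted differently in the cultivars was tested by subtracting the mean size change of 'AU9' males and females from that of 'SunUp'. The rule favours a steady level in the higher cultivar and sets no lower limit in the other, so it bears on this difference too. In edgeR's fit without a block 0 of 24 genes were called (background 0.0982%), 9 had an unadjusted p under 0.05, limma-voom called 0 and DESeq2 called 3, against 1.16% of all genes it tested. With the replicate number as a block 3 were called, against 0.838% of all tested genes. These were supercontig_3.20 (difference of log2 fold changes 2.85 ± 0.52, adjusted p = 0.0203), supercontig_3.19 (1.75 ± 0.29, adjusted p = 0.0255) and supercontig_919.2 (−1.29 ± 0.29, adjusted p = 0.0456). Without the block their adjusted p-values were 0.0658, 0.0719 and 0.112. The count without a block was 1 without female 7–12 mm replicate 1 and 2 without replicate 2 of female or of hermaphrodite 7–12 mm.

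In the values of these 3 genes the gap between the cultivars was wider in the larger buds. For supercontig_3.20 and supercontig_3.19, 'AU9' means were lower at 7–12 mm in both sexes and 'SunUp' means were higher. For supercontig_919.2 the 'SunUp' values were lower at 7–12 mm, at 2.20 and 3.34 CPM, and the 'AU9' libraries of that size lay between 50.3 and 61.8 CPM.

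None of the 24 genes was called between replicate 2 and replicate 1 across the 6 groups (background 4.50%), and 5 had an unadjusted p under 0.05. By limma-voom the count was 0 as well. The rule takes the lowest and highest values over both replicates, so genes that differ much between them tend to fail it. The count of 0 was thus partly set by the rule, and no conclusion on the sequencing runs is drawn from it. From the replicate 1 libraries alone the rule held for 15 genes in 'SunUp' and 29 in 'AU9', and from the replicate 2 libraries alone for 15 and 44, with fewer libraries for a gene to pass in each case.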

How the data were processed

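RNA from papaya flower buds was measured in 12 libraries. Tools in the submitters' processing notes were FastQC (0.11.5), Trimmomatic (0.36), HISAT2 (2.0.5), SAMtools (1.3.1) and featureCounts (1.5.2), and the alignment target was a PacBio assembly of papaya. The counts deposited are raw reads per gene model. Per the file headers, counting was by strand, a read with several alignments counted once for each, and read pairs were not counted as fragments. Mates in replicate 2 were thus counted singly. By the study's own summary, every replicate 2 library had a smaller share of reads assigned to gene models than any replicate 1 library. The model evm.model.supercontig_26.86 had at most 1 count in each replicate 1 library and 46 to 134 in replicate 2. Whether opposite-strand reads entered the counts of replicate 2 was not tested. Coding sequences, mapped to the assembly by the authors with GMAP, served as gene models, so untranslated regions are not covered.

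The 24 genes and all lists were chosen with earlier results of these data known. Groups came from the labels. CPM are counts over the library total. Positions are 1-based on the authors' assembly. None of the 27689 identifiers matched the 48816 genes of the reference table, so no class by gene name is given, and no sequence is printed. The text names, in each direction, the 10 genes with the largest ratio, the 3 on either side of the limit, the 5 with the highest lowest value, and those with the smallest adjusted p between sexes (5 per size) and sizes (3). Others, evm.model.supercontig_26.89 and the neighbours included, were named after their values were seen.

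Differences were tested with edgeR (4.0.16; filterByExpr, TMM, quasi-likelihood) in R (4.3.3) in 1 fit over 6 groups and 19339 genes, which held all 24, with Benjamini-Hochberg adjustment, after tests on simulated data. A call needs an adjusted p under 0.05 and more than 2-fold. An exact test of 2 libraries against 2 cannot go below p = 0.333, so genes were tested only in this fit across all genes. Same-numbered libraries deviated together (correlations 0.734 to 0.839 over 15 pairs of groups), as the number marks the sequencing run type in the study's methods, so the replicate number was also fitted as a block. Alternatives were DESeq2 (1.42.0), limma-voom (3.58.1), other size factors, filters, equal depth in all libraries by thinning, and omission of each library in turn. Leaving out 2 libraries together was added after the data were seen.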

Additional observations from a re-analysis of the deposited data

Results flagged for a closer look

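With the replicate number as a block, 3 genes changed with bud size to a different extent in 'SunUp' and in 'AU9' by the test of that difference. The difference of log2 fold changes (7–12 against 1–6 mm, 'SunUp' minus the mean of 'AU9' males and females) was 2.85 in evm.model.supercontig_3.20, 1.75 in evm.model.supercontig_3.19 and −1.29 in evm.model.supercontig_919.2. The counts of evm.model.supercontig_3.20 in 'AU9' were 2 and 1 in the female and 3 and 2 in the male 7–12 mm libraries, so its value there rests on 8 reads. Without the block none of the 3 passed, and DESeq2, also without it, called 3 of the 24 genes. Groups of 2 libraries are too small for a test of 1 library against the rest of its group.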

How the results depend on the processing

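Under the alternatives run, no call on a gene changed direction. Of 483 pairs of a call (23 calls) and an alternative, 440 kept the call and 43 lost it. The number of genes meeting the rule moved by over 1.5 times at a fold limit of 2 (28 in 'SunUp', 54 in 'AU9'), at a limit of 5 (6 in 'AU9') and from replicate 1 or replicate 2 libraries alone (29 and 44 in 'AU9'). Leaving out 1 library gave 10 to 12 in 'SunUp' and 14 to 21 in 'AU9'. Fewer libraries can only add genes to the rule. Within 20 kb, 4 of the 10 genes higher in 'SunUp' had another beside them, and within 200 kb 6.

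The replicate block moved the number of genes whose size change differed between the cultivars from 0 to 3 (DESeq2 3), and it changed no other call but that on evm.model.supercontig_80.46 in females. With no fold limit, 12 genes were called between the sexes at 1–6 mm (26.2% of all tested genes) and 7 between sizes in males (10.9%). Between sizes in hermaphrodites, limma-voom and thinning each gave 1. Without the 2 libraries with many unaligned reads, the counts between sizes were 1 in females, 2 in males and 1 in hermaphrodites.

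Leaving out 1 library gave 6 to 7 genes between the sexes at 1–6 mm, 5 to 8 at 7–12 mm, 0 to 5 between sizes in females, 1 to 4 in males, 1 to 2 in hermaphrodites, 0 to 2 for the difference between cultivars, and 0 between replicates. The causes were not tested. Thinning ended the calls on evm.model.supercontig_164.8 and evm.model.supercontig_3.20, both of few reads in 'AU9', and on evm.model.supercontig_919.2 in hermaphrodites. With 2 libraries in a group and 1 cultivar per sex class, a value of 'SunUp' is also a value of hermaphrodites.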
